A study of Mus musculus with 7 samples.

Results

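The respiratory chain and ATP synthase are described here through the genes for their protein subunits, taken by symbol. The nuclear members are the genes whose symbols begin with Nduf (followed by a, b, c, s or v and a number), Cox4 to Cox8, Uqcr or Atp5, together with Sdha, Sdhb, Sdhc and Sdhd. The mitochondrial members are the 13 protein-coding genes of the mitochondrial genome. The rule gave 92 of the 15815 genes of the table, 79 nuclear and 13 mitochondrial. By complex the nuclear members were 37 of complex I, 4 of complex II, 8 of complex III, 14 of complex IV and 16 of complex V, and the mitochondrial members were 7, 0, 1, 3 and 2. Complexes were assigned from the start of the symbol alone. A few members may therefore not be classical subunits of the complex they are counted in.

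The samples were regulatory T (Treg) cells, CD4+ T cells that hold immune responses in check, carrying a yellow fluorescent protein (YFP) and sorted by it from the mLN of Rag-/- mice. Rag-/- hosts make no T or B cells of their own. The YFP+ Treg cells were either WT (4 libraries) or deficient in Hpgd (3 libraries, called KO). They had been given to the hosts 8 weeks earlier, together with naive T cells and further Treg cells, both WT. Hpgd encodes an enzyme that inactivates prostaglandin E2. All 7 libraries carry the same strain (C57BL/6JRcc) and the same line label, a floxed Hpgd allele with Cre and YFP driven by Foxp3, so only the titles separate WT from KO. Whether the libraries stem from different hosts is not in the labels, and the p-values therefore reflect the spread of these 7 samples alone, which may be technical.

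Reads recovered from the deposited values numbered between 4135733 (KO 3) and 10622507 (WT 4) per library. Values are normalized counts, the deposited values less the offset of 1 that they contain. Hpgd, the targeted gene, was at 18.7, 9.96, 10.2 and 13.4 normalized counts in WT 1 to WT 4 and at 0.759, 2.42 and 5.52 in KO 1 to KO 3, from 56 reads in all WT and 7 in all KO libraries, and the groups did not overlap. All 6 markers listed for Treg cells (Foxp3, Il2ra, Ctla4, Ikzf2, Cd3e and Cd4) had reads in every library. Cd3e and Cd4 among them are not particular to Treg cells. The markers had summed normalized counts of 21875 to 29590 in WT and 26673 to 28787 in KO. WT 2 had the lowest sum, with the lowest Foxp3 (56.1), Ctla4 (3595) and Ikzf2 (4832). The markers were split there, as WT 2 also had the highest Cd3e (3021) and Cd4 (5769), with Il2ra inside the range of the others. Erythroid markers (5 of 8 listed were in the table, mostly globins) summed to between 642 and 2809 in WT, highest in WT 2, and to between 77.4 and 239 in KO. Alas2, the marker among them that is not a globin, went the other way in WT 2. It was at 13.2, 3.62, 11.3 and 19.0 in WT 1 to WT 4 and at 2.28, 9.69 and 7.36 in KO 1 to KO 3.

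The respiratory chain passes electrons from NADH (complex I) and succinate (complex II) through complexes III and IV to oxygen, and the protons pumped on the way drive ATP synthase (complex V). Complexes I, III, IV and V are built from subunits of both genomes, while complex II is wholly nuclear-encoded. Mitochondrial genes are transcribed as long polycistronic RNAs that are then cut apart, whereas each nuclear gene has its own promoter, and Treg cells are known to rely on oxidative phosphorylation.

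Promoters of nuclear members are shown first because NRF1 and ETS-family factors (such as GABP) are textbook regulators of these genes. RefSeq windows on GRCm38.p6, from 250 bases before to 50 after the start, were found for 66 of the 79 nuclear members (71 windows). Both strands were searched for GCATGCGC (NRF1), CCGGAAG (ETS), AAGATGGC (YY1) and TCAAGGTCA (ERR-alpha). The NRF1 letters were in 10 member windows (14.1%, against 2.71% of all 32851 windows and 5.24% of windows of tested genes), those of Atp5g2, Atp5k, Atp5l, Cox6a1, Ndufa6, Ndufa8, Ndufa11, Sdhb, Uqcr11 and Uqcrc1. The ETS letters were in 16 (22.5%, against 8.86% and 18.3%), the YY1 letters in 10 (14.1%, against 2.75% and 4.61%) and the ERR-alpha letters in 2, Atp5g3 and Sdhd (2.82%, against 0.423% and 0.270%). Atp5a1, Cox4i1, Cox4i2, Cox6c, Ndufa2, Ndufa13.1, Ndufb9, Ndufs1, Sdhc, Uqcrb, Uqcrc2 and Uqcrq had no entry. A match describes letters only. The 4 stretches shown are the 120 bases before the RefSeq start, read 5′ to 3′ on the gene's strand, with the NRF1 letters in capitals for Atp5k, Atp5g2 and Ndufa11 (where matches on both strands overlap in 1 run) and the ETS letters (as their reverse complement) for Atp5e. Atp5k, Atp5g2 and Atp5e are the nuclear members with the lowest KO-against-WT estimates. Their positions are chr5:108434400-108434519 (minus strand), chr15:102671048-102671167 (minus), chr17:56717642-56717761 (plus) and chr2:174464102-174464221 (minus), in that order.
Atp5k: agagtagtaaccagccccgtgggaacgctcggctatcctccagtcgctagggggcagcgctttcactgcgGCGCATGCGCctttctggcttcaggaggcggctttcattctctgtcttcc
Atp5g2: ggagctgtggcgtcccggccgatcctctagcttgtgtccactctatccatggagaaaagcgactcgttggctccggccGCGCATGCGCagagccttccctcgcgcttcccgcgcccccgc
Ndufa11: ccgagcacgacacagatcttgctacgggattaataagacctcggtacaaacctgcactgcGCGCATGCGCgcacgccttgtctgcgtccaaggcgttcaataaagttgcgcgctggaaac
Atp5e: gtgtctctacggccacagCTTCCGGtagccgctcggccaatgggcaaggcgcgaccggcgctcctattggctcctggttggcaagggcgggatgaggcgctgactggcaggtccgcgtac

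In level, the mitochondrial members stood above the nuclear ones. Per kilobase of transcript, the mean over the 7 libraries ran from 1537 (ND3) to 59580 (ATP6) normalized counts for mitochondrial members, with a median of 15647. For tested nuclear members the same quantity ran from 37.9 (Atp5s) to 4396 (Uqcrh), with a median of 1293. Within the mitochondrial genome the order of the 7-library means per kilobase was ATP6 (59580), CYTB (53295), ATP8 (44700), COX1 (43789), COX3 (34949), ND1 (19999), COX2 (15647), ND4 (11136), ND6 (5460), ND4L (5222), ND5 (4331), ND2 (3693) and ND3. The ND genes encode the membrane core of complex I. In these means the lowest 6 places went to ND genes, and ND1 stood higher, between COX3 and COX2. The order at the top differed between libraries: ATP6 was first in 3 (WT 3, WT 4 and KO 3), CYTB in 3 (WT 1, KO 1 and KO 2) and COX1 in WT 2, where COX3 was next and ATP6 and CYTB followed. Neighbours such as ATP8 and COX1, or ND6 and ND4L, differed by less than the spread of either gene over libraries. The per-kilobase levels of Atp5g1, Ndufb2 and Sdhc rest on a long annotated transcript and may be too low.

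Some mitochondrial genes overlap, and reads there cannot be told apart. ATP8 and ATP6 share 43 bases (chrM:7927-7969), shown because they make up part of ATP8's 204 bases and read in a different frame in each gene.
ATP8-ATP6 overlap: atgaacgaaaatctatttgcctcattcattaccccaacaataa
ND4L and ND4 share 7 bases, ATP6 and COX3 share 1, and ND5 and ND6 share 14 on opposite strands. Libraries without strand information do not separate the strands, so the whole ND6 row may also hold reads from the opposite strand.

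No member passed the test between KO and WT. Of the 92 members, 88 reached the mean normalized count of 10 needed for testing (75 nuclear and all 13 mitochondrial). With limma's test and Benjamini-Hochberg adjustment at 0.05, 0 of 88 were called, and 0 of all 11787 tested genes were (0%). At an unadjusted p under 0.05, 1 member was lower in KO and 0 were higher, against 1.01% and 0.781% of all tested genes. The same held with limma voom on the recovered reads, which called 0 members. The median 95% confidence interval reached 0.50 to either side of a nuclear estimate on the log2 scale and 0.88 to either side of a mitochondrial one. Differences of that size or smaller could be missed in these libraries. Larger ones could be missed too, because these intervals are not adjusted for the number of genes tested. The 4 tested erythroid markers, with estimates of -3.74 to -2.90, were not called either.

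The estimates of the 2 genomes nonetheless lay on opposite sides of zero, and that arrangement rested on WT 2. Of the tested nuclear members, 65 of 75 had an estimate below 0 (48.2% of all tested genes did), and their median log2 fold change was -0.18 beside 0.01 over all genes. Transcripts of over 500 and up to 1000 bases leaned the same way. Their median was -0.14 over all 590 genes and -0.22 over the 40 nuclear members. Of the mitochondrial members, 11 of 13 were above 0, with a median of 0.39. Without WT 2, 43 of 75 nuclear members were below 0 (49.4% of all genes) with a median of -0.03, and 6 of 13 mitochondrial members were above 0 with a median of -0.06. In that fit limma called 0 of 88 members (0% of all genes), and 1 had an unadjusted p under 0.05 (2.47% of all genes). Leaving out WT 3 moved the medians the other way, to -0.31 and 0.61, and leaving out WT 4 moved the mitochondrial median to 0.64. In bulk samples, fewer cells of a type and less RNA per cell cannot be told apart.

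**Figure D1:**
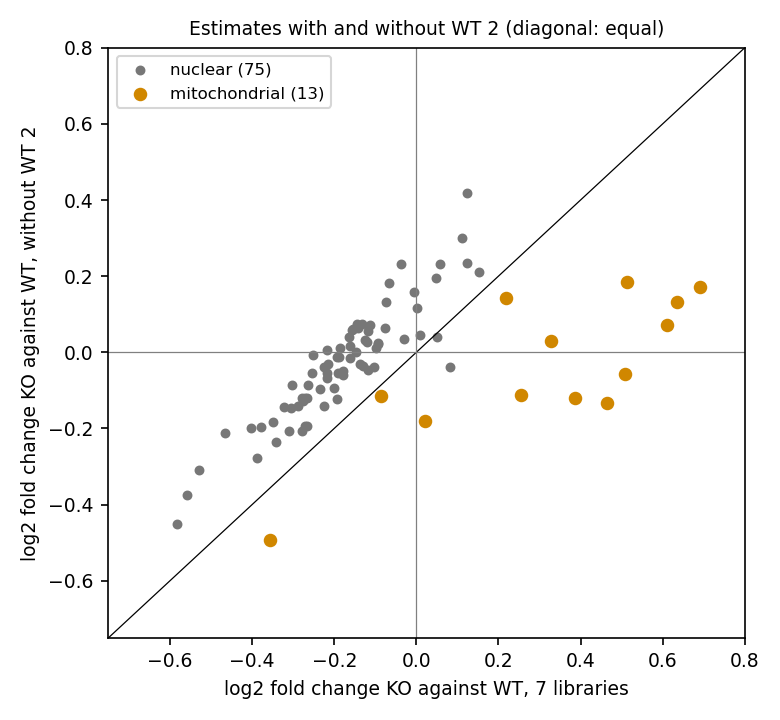
Log2 fold change KO against WT for each tested member with all 7 libraries (x axis) and without WT 2 (y axis), nuclear members in grey and mitochondrial members in orange, with the diagonal marking equal values. Most nuclear members lie above the diagonal and the mitochondrial members below it, their medians moving from -0.18 to -0.03 and from 0.39 to -0.06.

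The sums over each genome show the same library apart. The mitochondrial members made up 3.26%, 1.84%, 4.33% and 4.16% of all normalized counts in WT 1 to WT 4 and 3.23%, 4.56% and 4.21% in KO 1 to KO 3 (WT 3.40% ± 1.14, SD, n = 4, and KO 4.00% ± 0.687, n = 3). WT 2 was the lowest of the 7, and the groups overlapped. The nuclear members made up 1.37%, 1.74%, 1.11% and 1.28% in WT and 1.26%, 1.19% and 1.22% in KO, where WT 2 was the highest, WT 3 the lowest, and the KO libraries fell inside the WT range. The log2 ratio of mitochondrial to nuclear counts, in which a library's scaling cancels, was 1.25, 0.08, 1.96 and 1.70 in WT and 1.36, 1.94 and 1.79 in KO. KO minus WT was 0.45 with WT 2 and 0.06 without it, and the groups overlapped either way. By complex, this ratio in WT 2 was -1.49 for complex I, 0.65 for III, 1.63 for IV and -1.07 for V. In the other 6 libraries it lay between 0.41 and 1.30 for I, 2.36 and 3.09 for III, 2.27 and 3.08 for IV, and 0.49 and 1.34 for V, so WT 2 lay below that range in all 4 complexes.

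**Figure D2:**
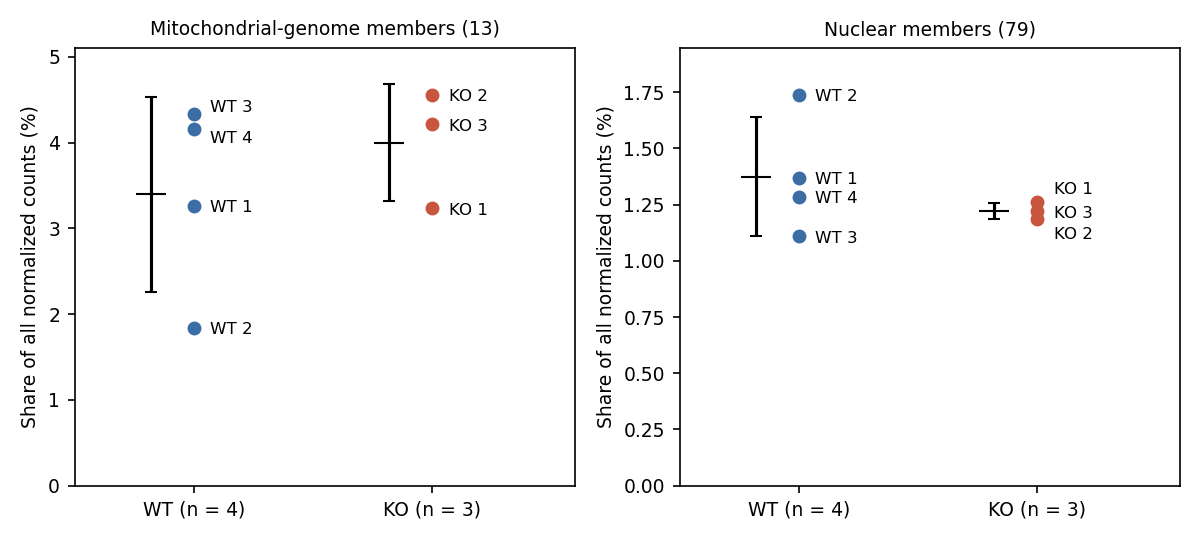
Share of all normalized counts (%) held by the 13 mitochondrial members (left) and the 79 nuclear members (right), each point 1 library, with the group mean ± SD as bars. WT 2 is lowest on the left (1.84%) and highest on the right (1.74%), and the other 6 libraries of both groups overlap.

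Gene by gene, WT 2 was the highest of the 7 libraries in 68 of 75 tested nuclear members, where it was highest in 29.2% of all tested genes, and the lowest in 11 of 13 mitochondrial members, where it was lowest in 27.1% of all genes. WT 2 minus the mean of the other 3 WT libraries had a median of 0.60 on the log2 scale over nuclear members and of -1.47 over mitochondrial members, against 0.05 over all genes. At the other end, WT 3 was the lowest library in 44 of 75 nuclear members and in 19.2% of all tested genes. The SD over the 7 libraries on the log2 scale had a median of 0.31 for nuclear and 0.64 for mitochondrial members.

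**Figure D3:**
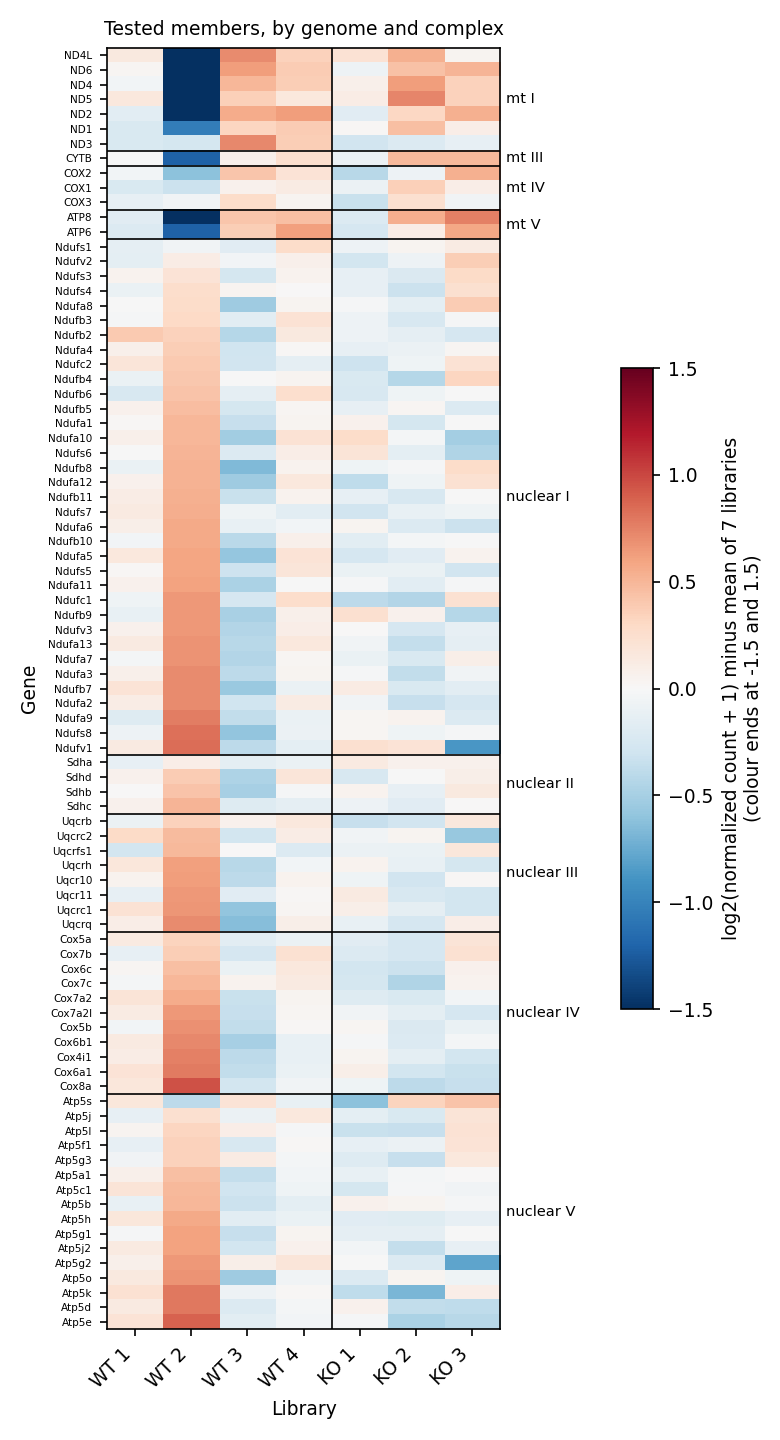
Deviation of log2(normalized count + 1) from the gene's mean over 7 libraries for the tested members but 1 (rows, grouped by genome and complex, with colours ending at -1.5 and 1.5), with WT left and KO right of the line. WT 2 is strongly blue over most mitochondrial rows and red over most nuclear rows, with median deviations of -1.21 and 0.55, while the next column of that kind, WT 1, has medians of -0.12 and 0.06.

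The mitochondrial members of complex I varied widely, with a median SD over the 7 libraries of 0.85 on the log2 scale. ND5, a proton-pumping subunit, was at 7906, 1958, 9108 and 7904 normalized counts in WT 1 to WT 4 and at 7647, 11740 and 9036 in KO, a log2 fold change of 0.69 (SE 0.44), or 0.17 (SE 0.18) without WT 2. WT 2 alone was low, while KO 1 lay just under the other WT libraries, KO 3 among them and KO 2 above them. ND4, another pumping subunit, was at 13338, 3735, 19425 and 17805 in the WT libraries and at 14458, 21245 and 17412 in KO. ND2, the remaining large pumping subunit, was at 3082, 1069, 5077 and 5308 in the WT libraries and at 3052, 4258 and 4987 in KO. In each of these genes WT 2 was the lowest library, and KO lay within or next to the range of WT 1, WT 3 and WT 4. ND4L, which shares its RNA with ND4, was at 1519, 345, 2248 and 1739 in the WT libraries and at 1603, 1993 and 1409 in KO. ND6, the one member read from the other strand, was at 2581, 667, 3896 and 3294 in the WT libraries and at 2393, 3421 and 3586 in KO. WT 2 held 0.188 of the mean of the other WT libraries for ND4L, the smallest ratio of the 13, and 0.205 for ND6.

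ND1 departed from that picture in degree, and ND3 departed from it in its lowest library, KO 1. ND1, at the quinone-binding end of the membrane arm, was at 15530, 8907, 22795 and 23856 in the WT libraries and at 18439, 24882 and 19564 in KO, a WT 2 ratio of 0.430. ND3 was at 441, 432, 854 and 671 in the WT libraries and at 422, 449 and 476 in KO, so WT 1 and WT 2 were alike and all 3 KO values lay near them. Its estimate of -0.36 (SE 0.26) was the lowest of the mitochondrial members and was -0.49 (SE 0.23) without WT 2. KO 1 was below every WT library for ND3, while KO 2 and KO 3 lay between WT 1 and WT 4.

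CYTB, the mitochondrial subunit of complex III, was at 57494, 24811, 60580 and 68768 normalized counts in the WT libraries and at 54112, 80311 and 80711 in KO. WT 2 was the lowest, and KO 2 and KO 3 were above every WT library while KO 1 was below WT 1. The log2 fold change was 0.51 (SE 0.38) and 0.18 (SE 0.22) without WT 2.

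The 3 mitochondrial subunits of complex IV had a median SD over the 7 libraries of 0.23 on the log2 scale. COX1, which holds the oxygen-binding site, was at 57007, 53338, 69820 and 72738 in the WT libraries and at 63015, 85725 and 71940 in KO. COX3 was at 24994, 26258, 32812 and 27990 in the WT libraries and at 21570, 31997 and 26180 in KO, and here WT 2 lay inside the WT range. COX2, which takes electrons from cytochrome c, was at 10005, 6772, 13810 and 11879 in the WT libraries and at 7732, 9802 and 14919 in KO. The ratio of WT 2 to the mean of the other WT libraries was 0.802 for COX1, 0.918 for COX3 and 0.569 for COX2, against 0.188 to 0.659 for the ND genes. The log2 fold changes were 0.22 (SE 0.30), -0.09 (SE 0.25) and 0.02 (SE 0.29), in the order COX1, COX3 and COX2, and 0.14 (SE 0.21), -0.12 (SE 0.20) and -0.18 (SE 0.22) without WT 2.

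ATP6 and ATP8, the mitochondrial subunits of ATP synthase's membrane part, were both lowest in WT 2. ATP6 was at 32649, 16259, 48797 and 57560 in the WT libraries and at 31583, 40838 and 56332 in KO. ATP8 was at 7183, 2350 and then 10779 and 11080 in the WT libraries and at 7036, 11771 and 13631 in KO. WT 2 held 0.351 and 0.243 of the mean of the other WT libraries, and KO 1 and WT 1 came next in both genes. For ATP8, KO 2 and KO 3 were above every WT library, whereas for ATP6 no KO library was above WT 4. The log2 fold changes were 0.26 (SE 0.41) for ATP6 and 0.64 (SE 0.45) for ATP8, and -0.11 (SE 0.26) and 0.13 (SE 0.24) without WT 2. COX3 starts on the last base of ATP6, so the WT 2 ratio changed from 0.351 to 0.918 between neighbours on 1 primary transcript.

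**Figure D4:**
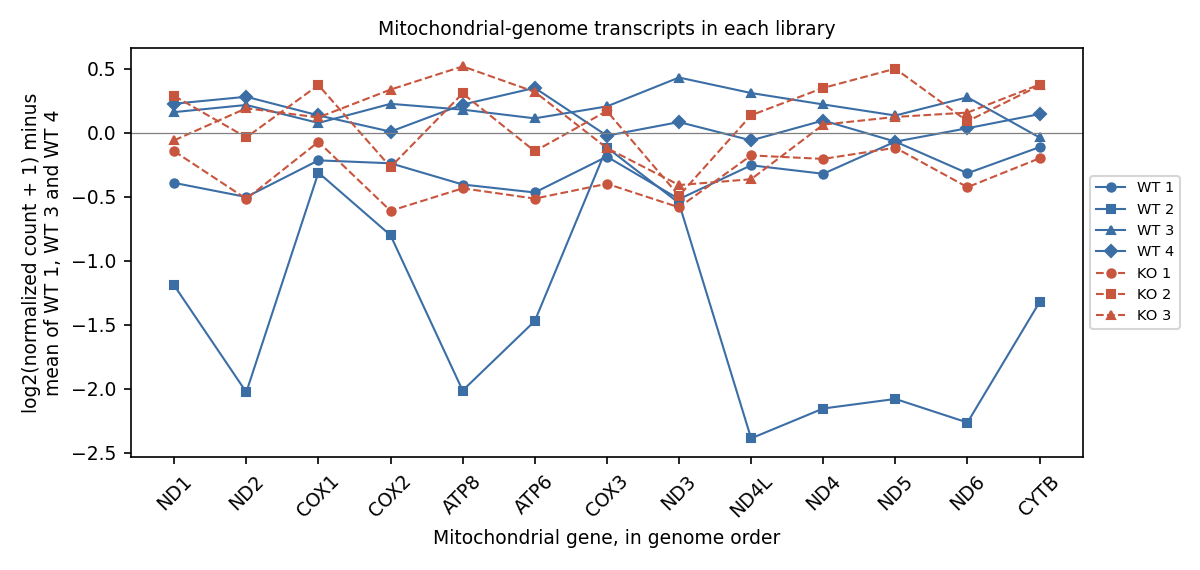
Log2(normalized count + 1) of each mitochondrial gene in each library less the mean of WT 1, WT 3 and WT 4, in genome order, with WT as solid and KO as dashed lines. WT 2 is the lowest library at 11 of 13 genes, the exceptions being COX3 and ND3, and falls furthest at ND4L (0.188 of the mean of the other WT libraries).

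Among nuclear members of complex I, 31 of 36 tested had an estimate below 0 (19 without WT 2), and the median estimate on the log2 scale was -0.16 (-0.01 without WT 2). The 7 core subunits, which carry the electron path, had a median of -0.03 with 4 below 0. The remaining 29 tested Nduf members, counted as accessory by symbol alone, had a median of -0.18 with 27 below 0. Without WT 2 the core median was 0.04 with 2 of 7 below 0, and the accessory median was -0.05 with 17 of 29 below 0. The difference between these sets was not tested. Ndufa13, an accessory subunit and the most abundant nuclear member of the complex by count, was at 2346, 3401, 1600 and 2370 normalized counts in the WT libraries and at 2054, 1657 and 1936 in KO. Ndufa2 was at 1321, 2011, 998 and 1342 in the WT libraries and at 1182, 966 and 1032 in KO, a log2 fold change of -0.38 (SE 0.23, 95% CI -0.88 to 0.12), or -0.20 (SE 0.18) without WT 2. Ndufa6 was at 1173, 1633, 1025 and 1070.5 in the WT libraries and at 1133, 959 and 883 in KO. WT 2 was highest in all 3 genes, and the groups overlapped in each.

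Ndufs1, the largest core subunit, was at 685, 722, 667 and 907 in the WT libraries and at 712, 774 and 818 in KO, so WT 2 was not raised (0.959 of the other WT libraries).

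Complex II, succinate dehydrogenase, also works in the citric acid cycle, and its 4 subunits had a median log2 fold change of -0.02 (0.11 without WT 2). Sdha, the flavoprotein that oxidises succinate, was at 2142, 2507, 2106 and 2173 normalized counts in the WT libraries and at 2563, 2443 and 2427 in KO. KO lay above WT 1, WT 3 and WT 4 but not clear of WT 2, and the log2 fold change of 0.15 (SE 0.17) was the highest of the nuclear members. Sdhb, the iron-sulfur subunit, was at 2507, 3341, 1755 and 2461 in the WT libraries and at 2576, 2293 and 2756 in KO. For the membrane anchors, Sdhc was at 430, 586, 360 and 375 in the WT libraries and at 389, 364 and 412 in KO, and Sdhd was at 914, 1143, 636 and 995 in the WT libraries and at 744, 870 and 934 in KO. The groups overlapped in all 4, and without WT 2 the 4 estimates were 0.21, 0.20, 0.00 and 0.02.

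In complex III all 8 nuclear members had an estimate below 0, with a median of -0.19, and 5 did without WT 2, with a median of -0.01. Uqcrc1, a large core protein, was at 2812, 3832, 1596 and 2459 normalized counts in the WT libraries and at 2562, 2198 and 2001 in KO. Its partner Uqcrc2 was at 1335, 1523, 906 and 1186 in the WT libraries and at 1060, 1126 and 737 in KO, a log2 fold change of -0.34 (SE 0.23). Uqcrb, a small subunit, was at 941, 1270, 1051 and 1121 in the WT libraries and at 790, 820 and 1114 in KO. In each gene WT 2 was highest, and at least 1 KO library lay inside the WT range.

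In complex IV all 11 tested nuclear members had an estimate below 0, with a median of -0.26, and 8 did without WT 2, with a median of -0.09. Cox8a, a small membrane subunit, was at 1474, 2552, 1085 and 1262 normalized counts in the WT libraries and at 1255, 1002 and 1033 in KO, a log2 fold change of -0.46 (SE 0.27, 95% CI -1.04 to 0.11), or -0.21 (SE 0.18) without WT 2. Cox7c was at 822, 1183, 867 and 921 in the WT libraries and at 694, 611 and 868 in KO, a log2 fold change of -0.39 (SE 0.21, 95% CI -0.84 to 0.06). In both, 2 KO libraries were below every WT library and the remaining one was not. Cox7a2l, a factor in joining complexes III and IV into supercomplexes, was at 3220, 4645, 2326 and 3013 in the WT libraries and at 2853, 2664 and 2486 in KO.

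Complex IV also has tissue-specific paralogues, and the widely expressed form of each was the one detected at high level. Per kilobase, Cox4i1 had a mean of 3484 normalized counts and Cox4i2, a lung-type form, one of 5.96. Cox7a2 had a mean of 1985 per kilobase, and Cox7a1, the heart and muscle form, one of 13.5. Cox6b1 had 3303 per kilobase, and Cox6b2, a testis form, 2.78. In single libraries the low forms reached at most 13.2, 13.7 and 4.52 normalized counts and were at 0 in at least 1 library each. These 3 forms, and a second row named Ndufa13.1 (0 to 12.1 normalized counts) that matched no annotated gene, were the 4 members too low to test. A level of a few reads is at the limit of detection here, 1 read being worth 0.703 to 1.84 normalized counts.

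In complex V, 13 of 16 nuclear members had an estimate below 0 (11 without WT 2), with a median of -0.21 (-0.09 without WT 2). Atp5b, the catalytic beta subunit of the F1 head, was at 4256, 6489, 3675 and 4157 normalized counts in the WT libraries and at 4839, 4761 and 4568 in KO. All 3 KO libraries lay above WT 1, WT 3 and WT 4 and below WT 2, so its estimate was 0.06 (SE 0.22) with WT 2 and 0.23 (SE 0.15) without it. The F1 head had a median of -0.19 and the Fo part and stalks one of -0.24, and without WT 2 these were -0.06 and -0.13. Atp5e, the small epsilon subunit of the head, was at 1315, 2104, 1022 and 1108 in the WT libraries and at 1121, 820 and 853 in KO, a log2 fold change of -0.53 (SE 0.25, 95% CI -1.07 to 0.02), or -0.31 (SE 0.18) without WT 2.

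The 2 lowest estimates of the nuclear members were in the membrane part of ATP synthase. Atp5k, subunit e of the Fo part, was at 820, 1209, 663 and 707 normalized counts in the WT libraries and at 537, 435 and 750 in KO. KO 1 and KO 2 were below every WT library and KO 3 was not, and the log2 fold change was -0.56 (SE 0.26, 95% CI -1.12 to -0.0016, limma adjusted p = 0.9996). This was the 1 member with an unadjusted p under 0.05, and without WT 2 its estimate was -0.38 (SE 0.21) and it no longer was.

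Atp5g2 was the 1 member of 88 whose KO libraries were all below the WT libraries, as were those of 1.93% of all tested genes, and for 0 members were they all above (1.71%). It encodes 1 of 3 precursors of the same c-ring protein, the rotor of the Fo part. It was at 260, 387, 260 and 280 normalized counts in the WT libraries and at 245, 212 and 142 in KO, so that the estimate was -0.58 on the log2 scale with an SE of 0.27 and an adjusted p of 0.9996 (limma). For the other precursor genes the groups overlapped, with Atp5g1 at 999 to 1928 normalized counts in WT and 1156 to 1265 in KO, and Atp5g3 at 1025 to 1359 in WT and 837 to 1190 in KO. Per kilobase, Atp5g3 had a mean of 1512 and Atp5g2 one of 349. The KO 3 value of Atp5g2 rests on 77 reads.

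Genes beside the chain, from lists of carriers, associated proteins and subunits that the symbol rule does not match, assembly factors, mitochondrial gene expression, regulators and the citric acid cycle, gave no call either. Estimates were below 0 for 4 of 8 tested genes of the first list, 27 of 45 assembly factors and 11 of 22 genes of mitochondrial gene expression. The same held for 6 of 9 regulators and 9 of 18 citric acid cycle genes, against 48.2% of all tested genes. Without WT 2 these counts were 3 of 8, 20 of 44, 10 of 22, 6 of 9 and 6 of 18, in that order, against 49.4%. The first list includes cytochrome c (Cycs) and the electron transfer flavoprotein genes Etfa, Etfb and Etfdh. Of these, Etfb was below 0 and Cycs, Etfa and Etfdh were above. The assembly factors Sdhaf3, for complex II, and Uqcc2, for complex III, had the smallest unadjusted p of that list. Sdhaf3 was at 9.90, 23.5, 15.8 and 37.3 normalized counts in the WT libraries and at 40.2, 44.4 and 80.9 in KO, with no overlap, which gave an estimate of 1.39 on the log2 scale, with an SE of 0.58 and an adjusted p of 0.9996 (limma). Uqcc2 was at 323, 475, 244 and 283 in the WT libraries and at 228, 187 and 221 in KO, again with no overlap, and the estimate was -0.60 with an SE of 0.27 and the same adjusted p. Without WT 2 the estimates were 1.48 for Sdhaf3 and -0.41 for Uqcc2. All KO libraries lay below all WT libraries in 2 of the 45 assembly factors and above them in 1, against 1.93% and 1.71% of all tested genes. In the remaining lists the 2 genes of smallest p were Atpif1 (-0.41), the inhibitor of ATP synthase, and Usmg5 (-0.31), an ATP synthase subunit, Tbrg4 (0.37) and Lrpprc (0.38), both of mitochondrial RNA handling, Pprc1 (-0.38) and Esrra (-0.39), transcriptional regulators, and Sucla2 (0.29) and Suclg1 (0.21), of succinyl-CoA synthetase, each as a log2 fold change with an adjusted limma p of 0.9996.

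Transcript length moved with the WT 2 values of nuclear genes, a relation looked at after those values were seen. Over all tested genes with a length (11071, 93.9%), the median log2 difference between WT 2 and the other WT libraries was 0.63 for transcripts of up to 500 bases, 0.58 up to 1000, 0.48 up to 1500, 0.33 up to 2000, 0.15 up to 3000, -0.04 up to 5000 and -0.47 above 5000. The nuclear members are short, with a median of 861 bases against 2989 for all tested genes, and in the class holding most of them (over 500 and up to 1000 bases, 40 members) their median was 0.61. The 3 nuclear members of over 3000 and up to 5000 bases were Atp5g1, Ndufb2 and Sdhc. Their median was 0.60, against -0.04 for all genes of that class. Their annotated transcripts may be longer than those present, so their class is uncertain. The mitochondrial members are as short (median 784 bases), yet their class medians were between -2.03 and -1.19. Ribosomal protein genes, 83 short nuclear genes, made up 7.76% of normalized counts in WT 2 and 4.49% to 5.65% in the other 6 libraries. The KO-against-WT estimates differed by length class too. Up to 500 bases, the median was -0.36 over all genes and -0.22 over the 5 nuclear members. From the class over 500 to that up to 5000 bases, the medians over all genes were -0.14, -0.06, -0.02, -0.0014 and 0.03. Those of nuclear members were -0.22, -0.13, -0.12, -0.012 and -0.16, in the same order. The part of transcript length, or of the erythroid and Treg marker levels of WT 2 given above, in the values of the members was not tested.

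**Figure D5:**
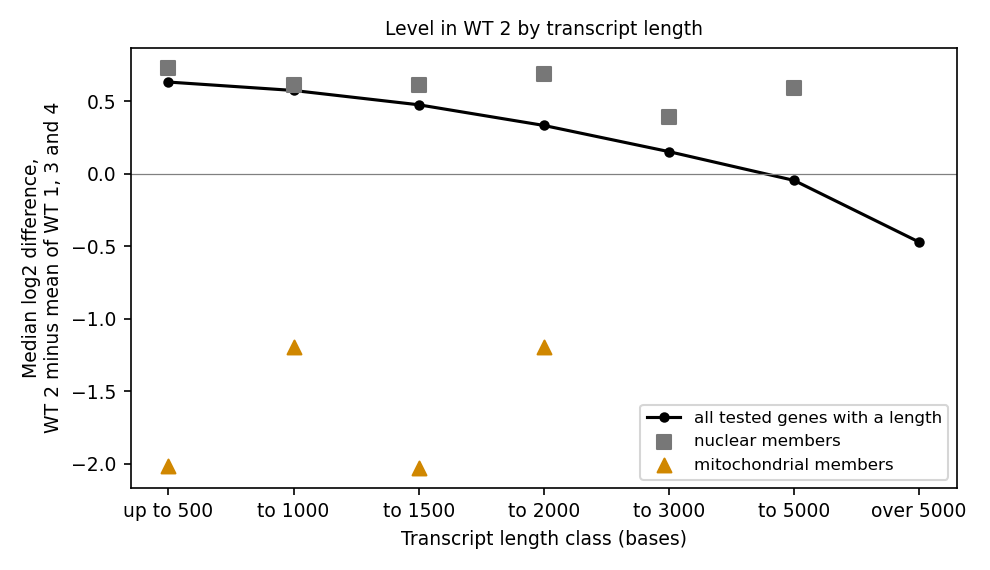
Median log2 difference between WT 2 and the mean of WT 1, WT 3 and WT 4 by transcript length class (bases), for all tested genes with a length (black line), nuclear members (grey squares) and mitochondrial members (orange triangles). The line goes from 0.63 in the shortest class to -0.47 in the longest, and the nuclear members lie on or above it. The class of the 3 nuclear members of over 3000 and up to 5000 bases is uncertain. The mitochondrial members lie far below the line in each class that holds any of them.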

How the data were processed

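The deposited table holds a normalized expression signal per gene for 7 RNA-seq libraries, made by the authors. SmartSeq2 libraries were made from 10 ng of RNA each, per the labels' protocols. This method carries neither molecular identifiers nor strand information. Tools listed in the submitters' processing notes, in no stated role or order, are kallisto 0.44, DESeq2 (version not given), R 3.3.1, Partek 6.6 and CASAVA 1.8, with the build mm10. After subtracting 1, all values (100%, to within 0.01 of a read) were multiples of a library-specific step, so normalized counts are the deposited signal minus 1, and reads were recovered from the steps. Since the deposited values are not counts, no count model was run and the planned test on log values was the main one.

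The test of KO against WT used limma 3.58.1 (R 4.3.3). It ran on log2(normalized count + 1), a scale that understates changes of low genes, with a trended prior and no covariate. It covered the 11787 of 15815 genes whose normalized count averaged 10 or more, two-sided, with Benjamini-Hochberg adjustment at 0.05. The code was tested on simulated data. Precision follows depth, with KO 3 the shallowest library. Lengths and mitochondrial positions are from GENCODE M21 (GRCm38), and promoters from RefSeq on GRCm38.p6.

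Members and gene lists were chosen with earlier results of these data known. The rule for named genes took every mitochondrial member, Sdha to Sdhd, and per nuclear complex (I, III, IV, V) the most abundant member and the 2 of smallest p, with paralogue families and untested members by level, and 2 genes per further list by p. Atp5e, Atp5s, Cycs, Etfa, Etfb, Etfdh, Ndufa11, Ndufs1 and Uqcrh were named after their values were seen. The values of 1 member are not reported here. Of the cell markers, B cell, myeloid, CD8 and NK, and stromal and epithelial genes summed to 320 to 751, 296 to 1422, 92.7 to 175 and 543 to 907 normalized counts in WT, and to 327 to 433, 641 to 2177, 62.5 to 150 and 572 to 739 in KO. Alternatives were another pseudocount, no filter, scaling to library totals, the replicate number as a block, leaving out each library, and voom on the recovered reads, the last chosen after seeing the data.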

Additional observations from a re-analysis of the deposited data

Results flagged for a closer look

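In 3 of the 36 named values that were checked, 1 WT library lay far from the other 3, by a criterion that chance meets in about 5% of groups of this size. All 3 were in WT 2. ND5 was at 1958 normalized counts there, below the other WT libraries, Sdha was at 2507 and Atp5g2 at 387, both above them. The other WT libraries were at 7904 to 9108 for ND5, 2106 to 2173 for Sdha and 260 to 280 for Atp5g2.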

How the results depend on the processing

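No member was called under any of the 12 alternatives: a pseudocount of 8, no filter on low values, scaling to library totals, the replicate block, voom on the recovered reads (chosen after seeing the data) and leaving out each of the 7 libraries. Over all tested genes, 3 were called with the replicate block and 0 under each other setting. Members at an unadjusted limma p under 0.05 numbered 0 to 6, with 6 without WT 3 and 4 with the replicate block. The matching shares of all genes are not given for these 2 settings, so these counts cannot be set against them. The planned count-model test on recovered reads was not run, because the deposited values are not counts. Under the first 3 of these and voom, the nuclear median stayed between -0.19 and -0.17 and the mitochondrial one between 0.39 and 0.40, rounded. With the replicate block, which drops WT 4 for want of a partner, they were -0.20 and 0.64 and the log2 ratio of the genomes was 0.59. Same-numbered libraries correlated at 0.008, -0.036 and 0.094 in their deviations over 11787 genes, and differently numbered ones at -0.196 to 0.205. With so few libraries these values cannot show whether the numbers pair the samples. Leaving out 1 library at a time gave nuclear medians of -0.31 (without WT 3) to -0.03 (without WT 2), mitochondrial medians of -0.06 (without WT 2) to 0.64 (without WT 4) and ratios of 0.06 (without WT 2) to 0.68 (without WT 3). The 29 named members with a test kept their sign under the 5 settings other than leaving out each library. With 1 library left out, 11 of them changed sign, 8 of them without WT 2 (ATP6, COX2, ND2, ND4L, ND6, Sdhc, Sdhd and Uqcrc1). Their ranges were -0.11 to 0.50 for ATP6, -0.24 (without KO 3) to 0.24 for COX2, -0.23 to 0.055 (without KO 1) for COX3, -0.12 to 0.65 for ND2, -0.13 to 0.77 for ND4L, -0.058 to 0.79 for ND6, -0.11 (without WT 3) to 0.20 for Sdhb, -0.23 to 0.0021 for Sdhc, -0.26 to 0.022 for Sdhd, -0.41 to 0.010 for Uqcrc1 and -0.042 (without WT 3) to 0.23 for Atp5b. COX2 was -0.18 without WT 2, and Sdhb was -0.013 without KO 3.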
